A study of Caenorhabditis elegans with 12 samples.

Results

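Genes of adult Caenorhabditis elegans were compared between fog-2 females and N2 hermaphrodites in cDNA libraries primed with random hexamers. The members were all genes that the authors' deposited table for this comparison marks as tested, 9855 of 39665 listed genes; 29347 further genes were not tested and 463 had too few data. The fog-2 animals were whole XX adult females homozygous for fog-2(q71), of strain JK574, and the N2 animals were whole XX adult hermaphrodites of the wild type. Both were grown at 20 °C on agar plates with OP50 bacteria as food, and 3 libraries a genotype were made with the TotalScript kit from RNA extracted with Trizol. For each genotype 1 RNA set served both this priming and oligo-dT priming, so oligo-dT values given beside the hexamer values come from the same animals. In the labels, 1 of the N2 hexamer samples has the strain written as N3 and another is described as primed with oligo-dT. Both were placed here by title. Whether the females had been kept apart from males is not stated in those labels.

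The F-box protein FOG-2 binds GLD-1, a repressor of mRNA translation, and together they hold down the tra-2 message, so that some germ cells of the XX hermaphrodite become sperm. Without it XX animals make oocytes and no sperm of their own, and can have offspring only after mating with males. Random hexamers prime cDNA along any RNA, whereas oligo-dT needs a poly(A) tail. Ribosomal RNA, the small nuclear and nucleolar RNAs, the RNA of the signal recognition particle and the mRNAs of replication-dependent histones, which end in a stem-loop, have no such tail.

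The deposited values are FPKM, fragments scaled to the length of the gene model and to the library size, and there is 1 pooled FPKM per genotype. Replicate spread could therefore not be computed, depth is unknown, and a gene is "called" where the authors' deposited table gives it a q-value no higher than 0.05. Log2 folds were recomputed as fog-2 over N2. Standard errors of log2 folds are those implied by the authors' p-value, with a median of 0.246 over tested genes, and are upper bounds for the 48 genes at the smallest p of the authors' deposited table, 5e-05. In whole animals, fewer cells of a type and less RNA per cell cannot be told apart.

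Of the tested genes, 81 were called in the authors' deposited table (0.822% of those tested), 53 of them higher in fog-2 females (0.538%) and 28 lower (0.284%). The genes that rose were expressed at higher levels than those that fell. Their median FPKM was 138 in fog-2 females and 48.5 in N2 hermaphrodites, with a median log2 fold of 0.96 and a range of 0.60 to 4.47. The genes that fell had a median of 10.4 FPKM in fog-2 females and 27.4 FPKM in N2 hermaphrodites, with a median log2 fold of -1.32. By RNA class, 41 of the genes that rose were protein-coding and 12 belonged to non-coding classes, while 26 of those that fell were protein-coding, 1 was a non-coding RNA and 1 matched no class.

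The table as a whole was shifted upward in fog-2 females. Over all tested genes the log2 fold had a median of 0.10, and 6615 of them (67.1%) lay above 0. That share was 43.8% among 1576 genes with a mean of the genotype values from 1 to 5 FPKM, 76.6% among 4171 genes from 20 to 100 FPKM and 92.4% among 157 genes at 1000 FPKM or more, where the median log2 fold was 0.23. Relative to that median, 31 genes (0.319%) were higher and 60 (0.618%) lower at an adjusted p no higher than 0.05, so the excess of higher calls turned into an excess of lower ones. In that way 21 of the genes that rose lost their call, with adjusted p-values from 0.0515 to 0.156 (Benjamini-Hochberg, from a normal test on the standard errors implied by the authors' deposited table), and 33 genes gained a lower call. Both kinds are marked where such a gene is described. Changes of gene groups are therefore also given relative to that median.

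**Figure D1:**
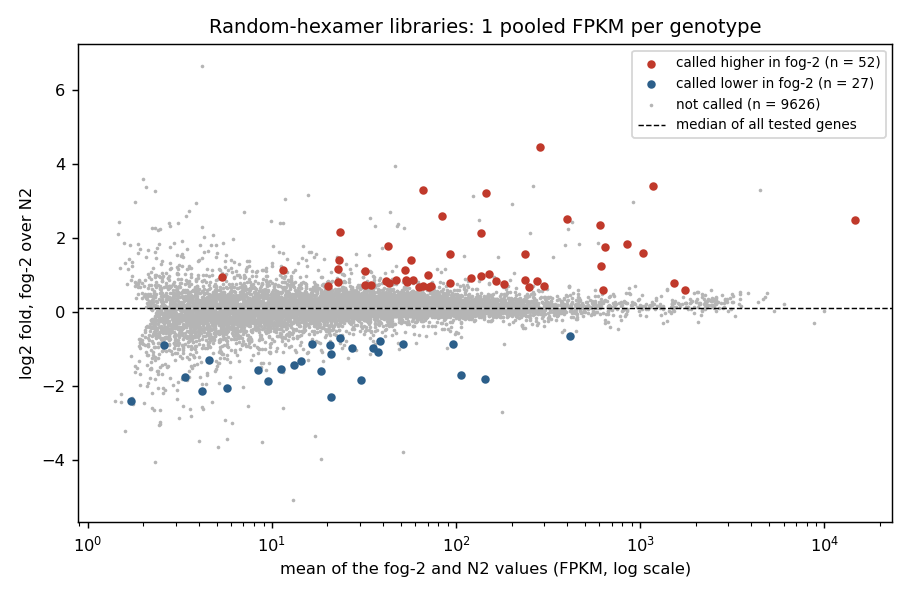
Log2 fold of fog-2 over N2 against the mean FPKM of both genotypes (log scale) for the tested genes with a value above 0 in both genotypes; red points were called higher in fog-2 females, blue points were called lower and the dashed line is the median of all tested genes at 0.10. Calls at over 1000 FPKM all lie above 0, and calls below 5 FPKM all lie below 0.

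The targeted gene fell to 7.08 FPKM in fog-2 females, against 34.9 FPKM in N2 hermaphrodites. Its log2 fold was -2.30 with an implied standard error of at most 0.57, and the authors' deposited table gives q = 0.0103. The fog-2 gene lies on chromosome V from 20199263 to 20200474 in the coordinates of the files, whose genome build the sources used here do not name. With oligo-dT it stood at 14.4 FPKM in fog-2 females and 64.2 FPKM in N2 hermaphrodites. Of 32 listed genes of germline sex determination 30 were tested, and fog-2 was the 1 call; the median log2 fold of the list was 0.09, or -0.01 relative to all tested genes. The fbxa, fbxb and fbxc families of F-box genes, a list that does not hold fog-2 itself, had 0 calls among 66 tested of 349 listed genes, with 4 higher and 2 lower at an unadjusted p under 0.05 against 6.37% and 2.6% of all tested genes. The member with the smallest p was fbxb-7, at 7.83 FPKM in fog-2 females and 3.34 FPKM in N2 hermaphrodites (p = 0.00125 in the authors' deposited table).

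Transcripts of the major sperm protein genes and male markers were scarce in both genotypes, while some other genes of the sperm list were not. Nematode sperm move by means of the major sperm protein and release it as a signal to oocytes, and of its 30 listed genes 29 were detected, of which 24 were lower in fog-2 females. The summed level of all members was 29.8 FPKM in fog-2 females and 67.2 FPKM in N2 hermaphrodites. Only 5 members were tested and none was called: their log2 folds ran from -3.23 to -0.73 with a median of -1.90. The member with the smallest p, msp-45, was at 0.307 FPKM in fog-2 females and 2.88 FPKM in N2 hermaphrodites (p = 0.0450, unadjusted, in the authors' deposited table), and msp-36 was at 1.77 FPKM in fog-2 females and 5.32 FPKM in N2 hermaphrodites. With oligo-dT, 29 members were tested and the authors' deposited table calls 14 lower and 0 higher, where 1.1% of all tested genes were called lower. Copies of this family are near-identical, which leaves the value of each copy uncertain. Other sperm genes, of which 21 of 103 were tested, had a median log2 fold of -0.08 and 0 calls, and their summed level was 522 FPKM in fog-2 females and 555 FPKM in N2 hermaphrodites. Among the 74 members detected in either genotype 50 were lower and 24 higher in fog-2 females, and among the tested ones 14 were lower and 7 higher. Of all 17452 protein-coding genes detected in either genotype, 7965 were lower and 9487 higher. The most abundant tested genes of the sperm list, spe-39 and nspc-14, were at 72.8 and 64.3 FPKM in fog-2 females, against 76.4 and 67.0 FPKM in N2 hermaphrodites. With oligo-dT, 60 genes of that list were tested, and the authors' deposited table calls 6 lower and 0 higher. Of all genes tested with oligo-dT, 1.1% were called lower and 0.335% higher. Male somatic markers were near 0: none of 13 was tested, and their summed level was 1.92 FPKM in fog-2 females and 2.13 FPKM in N2 hermaphrodites.

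Several RNAs that lack a poly(A) tail were among the genes that rose. Higher hexamer values were not confined to them. The protein-coding T07A5.5, from base 10318358 to 10318465, was at 610 FPKM in fog-2 females and 173 FPKM in N2 hermaphrodites, without a call. With oligo-dT it was at 914 and 900 FPKM. All 5 tested long intergenic non-coding RNAs were above 0, with a median log2 fold of 1.39 and 0 calls. Of all tested genes 67.1% were above 0. A link of the folds with gene length was not tested. The largest level among called genes was that of rrn-2.1, a gene for one of the smaller ribosomal RNAs, at 25019 FPKM in fog-2 females and 4431 FPKM in N2 hermaphrodites, a log2 fold of 2.50 with an implied standard error of at most 0.62. On the same stretch of chromosome I, 4827 bases away, the small-subunit ribosomal RNA gene rrn-1.1 was at 169 FPKM in fog-2 females and was listed at 0 in N2 hermaphrodites. Both were called in the authors' deposited table with q = 0.0103, and 2 of 4 listed genes of this class were tested. With oligo-dT, rrn-2.1 was at 22.9 FPKM in fog-2 females and 25.9 FPKM in N2 hermaphrodites.

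The RNA components of ribonucleoprotein particles rose as well. The sequences R144.15 and ZC155.8, named srpr-2.2 and srpr-2.1 for the RNA of the signal recognition particle, were both called. R144.15 stood at 2131 FPKM in fog-2 females and 201 FPKM in N2 hermaphrodites, a log2 fold of 3.40. The locus of R144.15 holds 3 gene models, among which fragments may be divided. ZC155.8 was at 1013 FPKM in fog-2 females and 198 FPKM in N2 hermaphrodites, a log2 fold of 2.36. The RNA of RNase MRP, which cuts ribosomal RNA precursors, is encoded by mrpr-1, and reached 990 FPKM in fog-2 females, against 294 FPKM in N2 hermaphrodites, a log2 fold of 1.75. Each had q = 0.0103 in the authors' deposited table. The related RNase P RNA gene rpr-1 was at 1612 FPKM in fog-2 females and 206 FPKM in N2 hermaphrodites, but was not called (p = 0.580 in the authors' deposited table). With oligo-dT these RNAs were at low levels: mrpr-1 was at 0.721 FPKM in fog-2 females and 1.03 FPKM in N2 hermaphrodites, and R144.15 was at 0.538 FPKM in fog-2 females and 1.03 FPKM in N2 hermaphrodites.

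Small nuclear RNAs, the cores of the splicing particles, were higher in 9 of 10 tested genes, of which 3 were called, and 78 genes of the class are listed. Of all tested genes 67.1% were above 0 and 0.538% were called higher. Summed over the class, the level was 3524 FPKM in fog-2 females and 725 FPKM in N2 hermaphrodites. F08H9.10 was at 678 FPKM in fog-2 females and 118 FPKM in N2 hermaphrodites, with a log2 fold of 2.52. T27E4.12 was at 221 FPKM in fog-2 females and 50.1 FPKM in N2 hermaphrodites, with a log2 fold of 2.14. The third called gene, sup-6, known from suppressor mutations, was at 1325 FPKM in fog-2 females and 368 FPKM in N2 hermaphrodites, with a log2 fold of 1.85. Another such gene, sup-39, was at 226 FPKM in fog-2 females and 40.5 FPKM in N2 hermaphrodites and was not called (p = 0.00235 in the authors' deposited table). All but 1 of the tested genes lie in a locus shared with other gene models, whose fragments the table may divide among them.

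Small nucleolar RNAs, which guide the modification of ribosomal RNA, had 26 of 31 tested genes above 0 and 2 called, out of 108 listed. Over all tested genes 67.1% were above 0 and 0.538% were called higher. Y74C9A.6 was at 856 FPKM in fog-2 females and 362 FPKM in N2 hermaphrodites, and Y23H5B.10 was at 355 FPKM in fog-2 females and 120 FPKM in N2 hermaphrodites. Relative to the table median, Y23H5B.10 was no longer called. The class median was a log2 fold of 2.17, but 28 of the tested genes lie in shared loci, and over the 3 with a locus of their own it was 0.0426. Of 45 genes of the class detected in either genotype, 33 were higher and 12 lower in fog-2 females.

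Other non-coding RNAs were divided. In the broad ncRNA class 182 of 5546 genes were tested, with 5 called higher and 1 called lower; of 912 detected genes 347 were higher and 565 lower in fog-2 females. C38C6.8, named lfor-1, rose to 1548 FPKM in fog-2 females, against 511 FPKM in N2 hermaphrodites. F39D8.7 rose to 1927 FPKM in fog-2 females, against 1119 FPKM in N2 hermaphrodites. Both lie in loci of 3 gene models. The opposite call was tts-2, which fell to 4.09 FPKM in fog-2 females, against 14.8 FPKM in N2 hermaphrodites. With oligo-dT, tts-2 was at 4.66 FPKM in fog-2 females and 18.7 FPKM in N2 hermaphrodites. Its relative tts-1, an RNA known from long-lived larvae and mutants, was at 129 FPKM in fog-2 females and 236 FPKM in N2 hermaphrodites and was not called (p = 0.105 in the authors' deposited table). Over 7 non-coding classes together, 4.98% of 241 tested genes were called higher and 0.415% lower, against 0.538% and 0.284% of all tested genes. Of these 13 non-coding calls, 6 lie in a locus of their own.

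**Figure D2:**
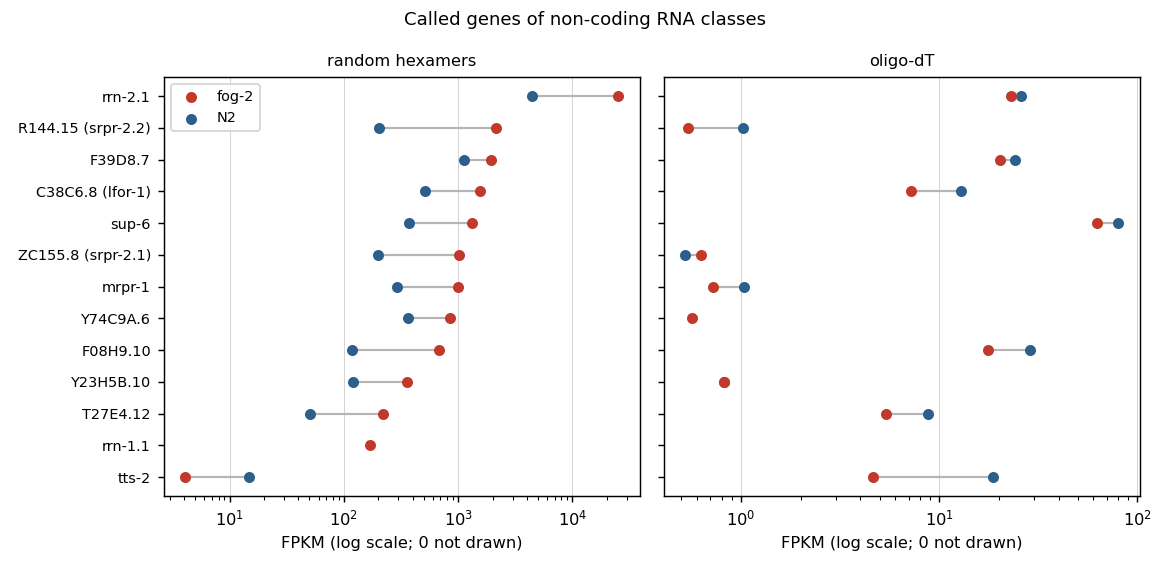
FPKM (log scale) in fog-2 females (red) and N2 hermaphrodites (blue) of the called genes of non-coding RNA classes, with random hexamers on the left and oligo-dT on the right; values of 0 are not drawn. On the left all but tts-2 are higher in fog-2 females, with rrn-2.1 at 25019 FPKM; on the right rrn-2.1 is at 22.9 FPKM in fog-2 females and 25.9 FPKM in N2 hermaphrodites.

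Core histone genes, whose mRNAs package newly replicated DNA and end in a stem-loop, had 24 of 31 tested members above 0, out of 55 listed. That share, 77.4%, was near the 78.2% of all tested genes from 100 to 1000 FPKM. Of the tested members 3 were called higher and none lower, where 0.538% and 0.284% of all tested genes were called. The median log2 fold was 0.49, or 0.38 relative to all tested genes. Over the 26 members with a locus of their own it was 0.34, with 19 higher and 7 lower. At an unadjusted p under 0.05, 14 were higher and 3 lower, against 6.37% and 2.6% of all tested genes. The largest fold was that of his-55, at 138 FPKM in fog-2 females and 46.3 FPKM in N2 hermaphrodites, with a log2 fold of 1.57. The other called copies were his-67, at 2099 FPKM in fog-2 females and 1380 FPKM in N2 hermaphrodites, and his-5, at 229 FPKM in fog-2 females and 135 FPKM in N2 hermaphrodites. Both lost their call relative to the table median. On the other side, his-46 was at 53.6 FPKM in fog-2 females and 84.1 FPKM in N2 hermaphrodites, his-58 at 78.6 FPKM in fog-2 females and 118 FPKM in N2 hermaphrodites, and his-66 at 80.6 FPKM in fog-2 females and 118 FPKM in N2 hermaphrodites, each with a log2 fold below 0 and no call. Summed over all copies, the level was 24792 FPKM in fog-2 females and 18723 FPKM in N2 hermaphrodites. Histone copies share sequence, which makes the value of a single copy uncertain.

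Histones outside the replication-dependent clusters and the proteins that mature histone mRNA held 0 calls. Over 13 tested linker and replacement histone genes the median log2 fold was 0.19, and his-74, an H3.3-type gene, was at 553 FPKM in fog-2 females and 367 FPKM in N2 hermaphrodites (p = 0.0008 in the authors' deposited table). The stem-loop-binding protein gene cdl-1 was at 237.1 FPKM in fog-2 females and 264 FPKM in N2 hermaphrodites, a log2 fold of -0.15. Its list, which also holds Sm and Lsm protein genes, gave a median of 0.23 for its 15 tested genes. With oligo-dT the core histones were at low levels: his-55 was at 0.127 FPKM in fog-2 females and 0.123 FPKM in N2 hermaphrodites, and his-67 was at 33.8 FPKM in fog-2 females and 39.1 FPKM in N2 hermaphrodites.

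Genes of the protein synthesis machinery lay slightly but broadly above 0, without calls. Of the cytosolic ribosomal protein genes, 76 of 78 tested members were above 0, and the median log2 fold was 0.26, or 0.16 relative to all tested genes. Mitochondrial ribosomal protein genes had 62 of 65 members above 0 and a median of 0.29, or 0.18 relative to all tested genes. At an unadjusted p under 0.05, 16 cytosolic and 10 mitochondrial members were higher and none lower, against 6.37% and 2.6% of all tested genes. The large-subunit gene rpl-38 was at 4521 FPKM in fog-2 females and 3158 FPKM in N2 hermaphrodites (p = 0.0024 in the authors' deposited table), and mrpl-45 was at 38.2 FPKM in fog-2 females and 23.99 FPKM in N2 hermaphrodites (p = 0.00175 in that table). The cytosolic list is highly expressed, with a median of 2591 FPKM in fog-2 females and 2155 FPKM in N2 hermaphrodites. All tested genes at 1000 FPKM or more had a median log2 fold of 0.23, with 92.4% above 0. The mitochondrial list had medians of 46.3 FPKM in fog-2 females and 40.2 FPKM in N2 hermaphrodites. All tested genes from 20 to 100 FPKM had a median log2 fold of 0.12, with 76.6% above 0. The 29 translation factor genes had a median of 0.13, of which the elongation factor gene eef-1A.2 was at 197 FPKM in fog-2 females and 264 FPKM in N2 hermaphrodites. Over the 64 cytosolic genes tested with both primings, the median log2 fold was 0.25 with hexamers and 0.04 with oligo-dT. For 62 mitochondrial genes these medians were 0.28 and 0.15, and for 26 translation factor genes 0.12 and -0.02. For 8255 protein-coding genes they were 0.10 and 0.05.

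**Figure D3:**
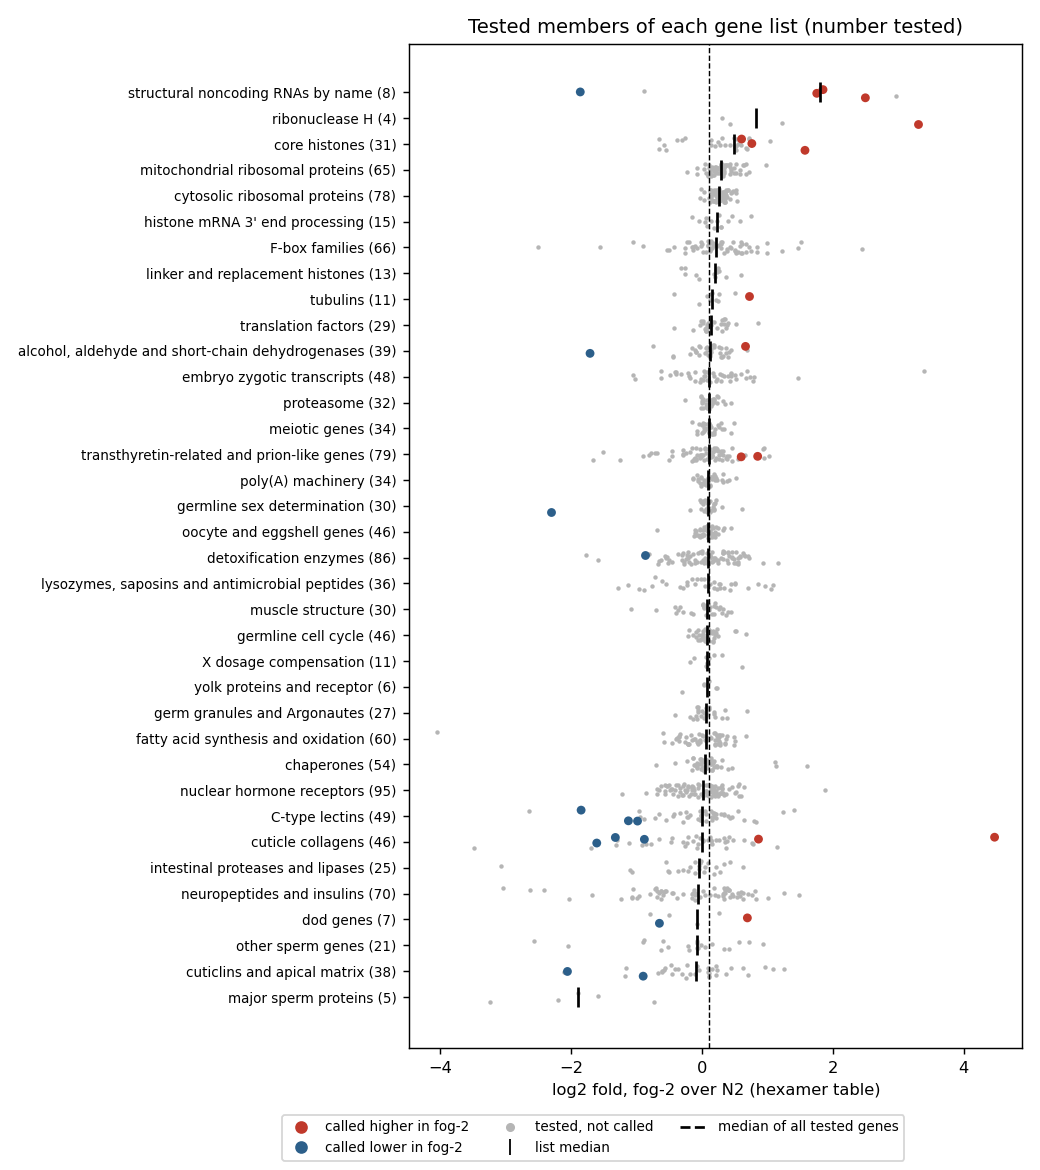
Log2 fold of fog-2 over N2 of the tested members of each gene list with at least 4 tested members and a value above 0 in both genotypes, ordered by list median (black bar); red points were called higher in fog-2 females, blue points called lower, and the dashed line is the median of all tested genes at 0.10. Major sperm proteins lie lowest with a median of -1.90, core histones lie at 0.49, and most germline lists lie close to the dashed line.

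The largest fold among called genes with values above 0 in both genotypes was that of col-143, a cuticle collagen gene. It stood at 545 FPKM in fog-2 females and 24.6 FPKM in N2 hermaphrodites, a log2 fold of 4.47 with an implied standard error of at most 1.10. With oligo-dT it was at 738 FPKM in fog-2 females and 49.1 FPKM in N2 hermaphrodites. The neighbouring collagen gene on chromosome V went the other way: col-142, which ends 3442 bases before col-143 begins, fell to 67.8 FPKM in fog-2 females, against 125 FPKM in N2 hermaphrodites. In file coordinates col-142 runs from 6831169 to 6832195 and col-143 from 6835637 to 6836646. With oligo-dT, col-142 was at 71.1 FPKM in fog-2 females and 156 FPKM in N2 hermaphrodites.

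Among cuticle collagens as a list, 2 were called higher and 3 lower of 46 tested and 174 listed, at a median log2 fold of -0.01. Of all tested genes 0.538% were called higher and 0.284% lower. Besides col-143, col-159 rose to 74.9 FPKM in fog-2 females, against 41.2 FPKM in N2 hermaphrodites, a call lost relative to the table median. The other genes that fell were col-135, at 9.11 FPKM in fog-2 females and 27.8 FPKM in N2 hermaphrodites, and sqt-3, a collagen that shapes the body, at 8.22 FPKM in fog-2 females and 20.6 FPKM in N2 hermaphrodites. Among other proteins of the cuticle and apical matrix 2 of 38 tested genes fell and none rose. The cuticlin gene cut-3 was at 2.22 FPKM in fog-2 females and 9.21 FPKM in N2 hermaphrodites, a log2 fold of -2.06. The moulting gene mlt-11, which encodes a protease inhibitor, was at 1.80 FPKM in fog-2 females and 3.36 FPKM in N2 hermaphrodites, a log2 fold of -0.90, or -0.64 with 1 FPKM added to each value.

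Transcripts that embryos make themselves, which N2 hermaphrodites can carry in utero, had 0 calls among 48 tested of 95 listed genes and a median of 0.11 on the log2 scale. Of these, the muscle regulator unc-120 was at 3.38 FPKM in fog-2 females and 7.04 FPKM in N2 hermaphrodites (p = 0.00755 in the authors' deposited table), and the epidermal regulator lin-26 was at 114.8 FPKM in fog-2 females and 110.6 FPKM in N2 hermaphrodites. The 30 tested genes of muscle structure had 0 calls and a median of 0.08. The myosin heavy chain gene myo-1, of the pharynx, lay just outside the threshold at 17.4 FPKM in fog-2 females and 28.3 FPKM in N2 hermaphrodites (q = 0.0528 in the authors' deposited table) and passed relative to the table median.

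The few calls among C-type lectins were all lower, but the tested members lay on both sides of 0. Of 49 tested members of this family, secreted proteins with a sugar-binding domain, 25 were above 0 and 24 below, out of 252 listed. The list median was 0.01. Among them 3 were called lower and none higher, where 0.284% and 0.538% of all tested genes were called. At an unadjusted p under 0.05, 6 were lower and 3 higher, against 2.6% and 6.37% of all tested genes. The largest fall was in clec-190, at 13.2 FPKM in fog-2 females and 47.3 FPKM in N2 hermaphrodites, a log2 fold of -1.85. The locus of clec-190 holds 3 gene models. The adjacent genes clec-222 and clec-223, 731 bases apart on chromosome V, were at 13.1 and 18.3 FPKM in fog-2 females, against 28.5 and 36.3 FPKM in N2 hermaphrodites. Named for acting downstream of the transcription factor DAF-16, dod-23 fell to 322 FPKM in fog-2 females, against 505 FPKM in N2 hermaphrodites, while dod-19, of the same naming class, rose to 81.2 FPKM in fog-2 females, against 50.2 FPKM in N2 hermaphrodites. The dod-19 call was lost relative to the table median. Lysozymes, saposins and antimicrobial peptides had 0 calls among 36 tested, but spp-2, a saposin-like gene at 60.5 FPKM in fog-2 females and 118 FPKM in N2 hermaphrodites, passed relative to that median.

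Digestive and metabolic enzymes held few calls, where 0.538% of all tested genes were called higher and 0.284% lower. Intestinal proteases and lipases had none among 25 tested genes, with 1 higher and 6 lower at an unadjusted p under 0.05, and a median log2 fold of -0.05. Over all tested genes, 6.37% were higher and 2.6% lower at that unadjusted p. The cathepsin B gene cpr-1 was at 306 FPKM in fog-2 females and 449 FPKM in N2 hermaphrodites, and the lysosomal lipase gene lipl-2 was at 3.32 FPKM in fog-2 females and 6.99 FPKM in N2 hermaphrodites. Of these, cpr-1 passed relative to the table median. Fatty acid genes had 0 calls among 60 tested, 5 higher and 7 lower at an unadjusted p under 0.05; the desaturase gene fat-3 was at 61.2 FPKM in fog-2 females and 91.5 FPKM in N2 hermaphrodites. Alcohol, aldehyde and short-chain dehydrogenases had 1 call in each direction among 39 tested: sodh-1, an alcohol dehydrogenase gene, fell to 49.8 FPKM in fog-2 females, against 163 FPKM in N2 hermaphrodites, and alh-9, an aldehyde dehydrogenase gene, rose to 86.8 FPKM in fog-2 females, against 54.7 FPKM in N2 hermaphrodites. The alh-9 call was lost relative to the table median. Detoxification enzymes held 1 call among 86 tested, the glucuronosyltransferase gene ugt-44, at 11.7 FPKM in fog-2 females and 21.4 FPKM in N2 hermaphrodites.

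Other genes that fell belong to no single list. The sugar and inositol transporter gene hmit-1.1 was at 4.21 FPKM in fog-2 females and 12.5 FPKM in N2 hermaphrodites, with a log2 fold of -1.57. The aquaporin gene aqp-1, a water and glycerol channel, was at 24.1 FPKM in fog-2 females and 51.5 FPKM in N2 hermaphrodites, with a log2 fold of -1.10. F09G2.3, named pitr-5 for a phosphate transporter, was at 1.54 FPKM in fog-2 females and 5.24 FPKM in N2 hermaphrodites, just inside the threshold (q = 0.0487 in the authors' deposited table). The acid ceramidase gene asah-1 was at 28.3 FPKM in fog-2 females and 49.0 FPKM in N2 hermaphrodites. K04H4.2, named chtb-1 for chitin binding, had the lowest fold among called genes with values above 0 in both genotypes, -2.40. It was at 0.548 FPKM in fog-2 females and 2.89 FPKM in N2 hermaphrodites, in a locus of 3 gene models. R02F11.1 was listed at 0 in fog-2 females and was at 4.69 FPKM in N2 hermaphrodites. Among called genes known by sequence name alone, F53A9.8 was at 63.6 FPKM in fog-2 females and 222 FPKM in N2 hermaphrodites, T22F3.11 at 1.53 FPKM in fog-2 females and 6.75 FPKM in N2 hermaphrodites, and C05D11.5 at 7.10 FPKM in fog-2 females and 19.2 FPKM in N2 hermaphrodites.

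Next to col-143, the largest fold among called protein-coding genes was in a ribonuclease H gene. The ribonuclease H gene rnh-1.3, of a family that cuts RNA paired with DNA, was at 120 FPKM in fog-2 females and 12.1 FPKM in N2 hermaphrodites, a log2 fold of 3.31 with an implied standard error of at most 0.82. With oligo-dT it was at 281 FPKM in fog-2 females and 20.7 FPKM in N2 hermaphrodites. Its paralog rnh-1.0 was at 10.2 FPKM in fog-2 females and 4.38 FPKM in N2 hermaphrodites and was not called (p = 0.0147 in the authors' deposited table). H19N07.3, named nhj-1 for the joining of broken DNA ends, rose to 38.2 FPKM in fog-2 females, against 8.45 FPKM in N2 hermaphrodites, a log2 fold of 2.18. The CTP synthase gene ctps-1 rose to 69.2 FPKM in fog-2 females, against 38.2 FPKM in N2 hermaphrodites. C50D2.8, named luc-7L3 for a splicing factor, rose to 29.2 FPKM in fog-2 females, against 16.5 FPKM in N2 hermaphrodites, a call likewise lost relative to the table median.

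Further genes that rose come from several lists or from none, where 0.538% of all tested genes were called higher. The transthyretin-related genes ttr-2 and ttr-15 were at 354.5 and 758 FPKM in fog-2 females, against 196.5 and 500.4 FPKM in N2 hermaphrodites, and were the 2 calls among 79 tested genes of their list; ttr-15 lost its call relative to the table median. The methionine sulfoxide reductase gene msra-1, which repairs oxidized protein, was at 307 FPKM in fog-2 females and 167 FPKM in N2 hermaphrodites. R05H10.5, named gpx-2 for a glutathione peroxidase, was at 31.8 FPKM in fog-2 females and 14.2 FPKM in N2 hermaphrodites, and its call was lost relative to the table median. F29C4.2, named cox-6C for a subunit of cytochrome c oxidase, was at 371 FPKM in fog-2 females and 229 FPKM in N2 hermaphrodites, a call lost in the same way. The elongin C gene elc-1, part of ubiquitin ligase complexes, was at 82.1 FPKM in fog-2 females and 31.0 FPKM in N2 hermaphrodites. The alpha-tubulin gene tba-4 was at 43.1 FPKM in fog-2 females and 26.2 FPKM in N2 hermaphrodites, the 1 call among 11 tested tubulins, and it too was lost relative to that median. Among genes given no role here are mau-8, at 262 FPKM in fog-2 females and 28.2 FPKM in N2 hermaphrodites, and Y38C1AA.1, at 144 FPKM in fog-2 females and 23.8 FPKM in N2 hermaphrodites.

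A further group of genes that rose lost their calls relative to the table median. The laminin beta gene lam-1, of the basement membrane, was at 25.03 FPKM in fog-2 females and 15.4 FPKM in N2 hermaphrodites. Its locus holds 17 gene models, and that of cpi-1, described below, holds 3. Y111B2A.19, named spin-4 for a lysosomal transporter family, was at 40.1 FPKM in fog-2 females and 24.3 FPKM in N2 hermaphrodites. The cystatin gene cpi-1, an inhibitor of cysteine proteases, was at 117 FPKM in fog-2 females and 68.6 FPKM in N2 hermaphrodites, and the transcription factor gene mxl-3, which responds to feeding state, was at 69.3 FPKM in fog-2 females and 39.5 FPKM in N2 hermaphrodites. The acid phosphatase gene pho-11 was at 77.5 FPKM in fog-2 females and 48.5 FPKM in N2 hermaphrodites, and W03F11.1, named ule-1 for its expression in the uterine lumen, was at 304 FPKM in fog-2 females and 192 FPKM in N2 hermaphrodites. The shift by the table median makes every negative fold larger, so it is no check of the genes that fell. One of those genes was sax-2, which shapes neurites, at 17.8 FPKM in fog-2 females and 28.8 FPKM in N2 hermaphrodites.

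**Figure D4:**
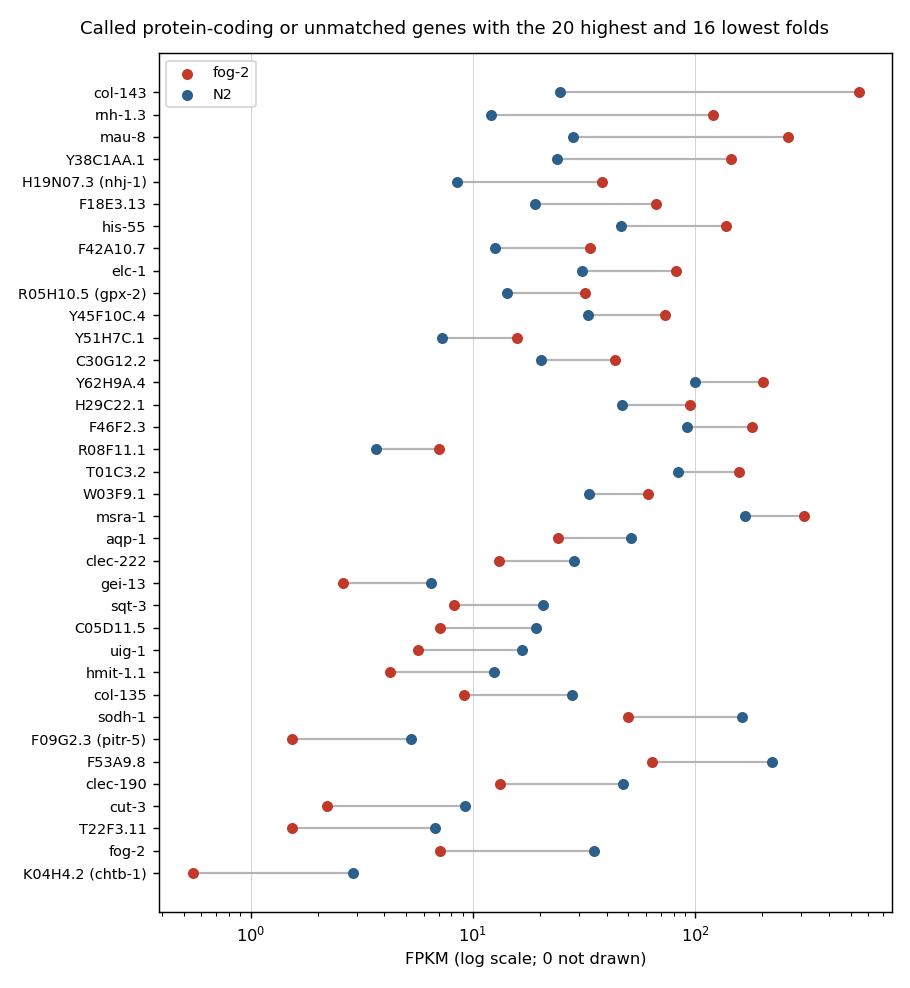
FPKM (log scale) in fog-2 females (red) and N2 hermaphrodites (blue) of called protein-coding genes and of sodh-1, which matched no class: the 20 with the highest folds above and the 16 with the lowest folds below. The widest gaps are those of col-143, at 545 FPKM in fog-2 females and 24.6 FPKM in N2 hermaphrodites, rnh-1.3 and mau-8.

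Germline lists other than those of sperm held no call apart from fog-2. The median log2 fold was 0.09 for 46 tested oocyte and eggshell genes, 0.11 for 34 meiotic genes, 0.06 for 27 germ granule and Argonaute genes, 0.08 for 46 germline cell cycle genes and 0.10 for 34 genes of the poly(A) machinery. Relative to all tested genes these medians were -0.01, 0.01, -0.04, -0.02 and 0.00, on the log2 scale. The eggshell proteoglycan gene cpg-2 was at 1874 FPKM in fog-2 females and 1778 FPKM in N2 hermaphrodites, and the B-type cyclin gene cyb-3 was at 1111 FPKM in fog-2 females and 990 FPKM in N2 hermaphrodites. For the poly(A)-binding protein gene pab-1 the values were 1204 FPKM in fog-2 females and 1052 FPKM in N2 hermaphrodites. Beside 0 calls in these lists, 2 meiotic, 2 germ granule, 1 cell cycle and 2 poly(A) machinery genes were higher at an unadjusted p under 0.05. At that p 1 germ granule gene, mut-16, was lower, at 90.8 FPKM in fog-2 females and 121 FPKM in N2 hermaphrodites. Of all tested genes 6.37% were higher and 2.6% lower at the same p.

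Yolk protein genes, expressed in the intestine and taken up by oocytes through the receptor RME-2, were near the top of the table in both genotypes. In fog-2 females vit-2 was at 7869 FPKM, against 9754 FPKM in N2 hermaphrodites, with p = 0.426 in the authors' deposited table. For vit-6 the values were 9979 FPKM in fog-2 females and 9800.0 FPKM in N2 hermaphrodites. The receptor gene rme-2 was at 482 FPKM in fog-2 females and 417 FPKM in N2 hermaphrodites. None of the 6 genes was called, and their summed level was 32869 FPKM in fog-2 females and 33232 FPKM in N2 hermaphrodites. The oligo-dT table marks vit-2 and vit-6 as having too many fragments to be estimated.

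Somatic regulators and stress genes had 0 calls as lists. For 95 tested of 281 listed nuclear hormone receptor genes the median log2 fold was 0.01. At an unadjusted p under 0.05, 1 was higher and 7 were lower, against 6.37% and 2.6% of all tested genes. Among those lower was nhr-31, at 9.57 FPKM in fog-2 females and 15.1 FPKM in N2 hermaphrodites. Neuropeptides and insulins had a median of -0.06 over 70 tested of 116, and ins-34, an insulin-like peptide gene, was at 15.8 FPKM in fog-2 females and 6.63 FPKM in N2 hermaphrodites (p = 0.00745 in the authors' deposited table). Chaperones had a median of 0.05 over 54, and hsp-70 was at 7.14 FPKM in fog-2 females and 3.26 FPKM in N2 hermaphrodites (p = 0.001 in the authors' deposited table). The proteasome median was 0.11 over 32 members. The list of X dosage compensation, the process that lowers X expression in XX animals, had a median of 0.07 over 11, with dpy-30 at 335 FPKM in fog-2 females and 220 FPKM in N2 hermaphrodites (p = 0.0007 in the authors' deposited table).

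Calls lay on all 6 chromosomes. Chromosome V held 12 of the 28 genes that fell, 0.698% of its 1718 tested genes, and 13 that rose, 0.757%. On chromosome I, 1 gene fell and 7 rose among 1773 tested. The X chromosome had 6 that rose and 2 that fell among 1342 tested, and its median log2 fold, 0.03, was the lowest of the 6. Besides col-142 and col-143, 4 pairs of neighbouring called genes lay within 10000 bases of each other. Y62H9A.3 and Y62H9A.4, 198 bases apart on the X chromosome, were at 210 and 201 FPKM in fog-2 females, against 117 and 99.3 FPKM in N2 hermaphrodites. On chromosome IV, clec-190 and col-135 lie 3651 bases apart and both fell.

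The study set both primings against each other to look for effects on polyadenylation, and for the genes called here the oligo-dT values can be placed beside the hexamer values. With oligo-dT the authors' deposited table calls 55 of 16396 tested genes higher (0.335%) and 180 lower (1.1%), against 53 and 28 with hexamers. For the 40 protein-coding genes that rose with hexamers and were tested in both tables, the median log2 fold was 0.86 with hexamers and 0.43 with oligo-dT, where it ranged from -0.38 to 3.91. For the 12 non-coding genes that rose, the median was 1.85 with hexamers, leaving out rrn-1.1, which was listed at 0 in N2 hermaphrodites. The 10 of them tested with oligo-dT had a median of -0.43 there, ranging from -0.93 to 0.26. Among 25 protein-coding genes that fell with values above 0 in both tables, the medians were -1.31 with hexamers and -1.16 with oligo-dT. All these genes were chosen by their hexamer calls, and that choice alone favours larger folds with hexamers. With oligo-dT, 12 of the 40 protein-coding genes that rose were called in the same direction. Of 26 protein-coding genes that fell and were tested there, 25 were.

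Some protein-coding genes had much lower FPKM with oligo-dT than with hexamers; the tables were scaled separately. The gene ctps-1 was at 1.09 FPKM in fog-2 females and 1.43 FPKM in N2 hermaphrodites with oligo-dT, and elc-1 at 3.69 FPKM in fog-2 females and 4.26 FPKM in N2 hermaphrodites. Neither shows the hexamer direction there. Nor does Y38C1AA.1, at 31.4 FPKM in fog-2 females and 34.3 FPKM in N2 hermaphrodites. For mau-8 the oligo-dT values were 69.1 FPKM in fog-2 females and 57.4 FPKM in N2 hermaphrodites. Among genes that fell, uig-1, a guanine nucleotide exchange factor gene in a locus of 7 gene models, was at 5.67 FPKM in fog-2 females and 16.6 FPKM in N2 hermaphrodites with hexamers, but at 5.51 FPKM in fog-2 females and 6.40 FPKM in N2 hermaphrodites with oligo-dT.

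The difference between the log2 folds, hexamers minus oligo-dT, was tested for 8593 genes by a normal test whose standard error combines those implied in both tables, with Benjamini-Hochberg adjustment. None passed an adjusted p of 0.05 (0.0% of those tested), and 138 had an unadjusted p under 0.05. For the 48 genes at the smallest hexamer p, 5e-05, the implied standard error is an upper bound. Even a large difference in such a gene then gives only a moderate p, so the 0 does not show that folds were equal. With standard errors taken from the authors' test score, 29 genes passed. Of those 29, 24 had the higher fold with hexamers and 3 were called in the hexamer table: mrpr-1, rrn-2.1 and Y38C1AA.1. The unadjusted p of Y38C1AA.1 was 6.09e-05 and that of F08H9.10 3.96e-05, each with an adjusted p of 0.262, and ctps-1 had an unadjusted p of 0.00160 and an adjusted p of 1.0. The test takes the tables as independent although they share RNA samples.

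**Figure D5:**
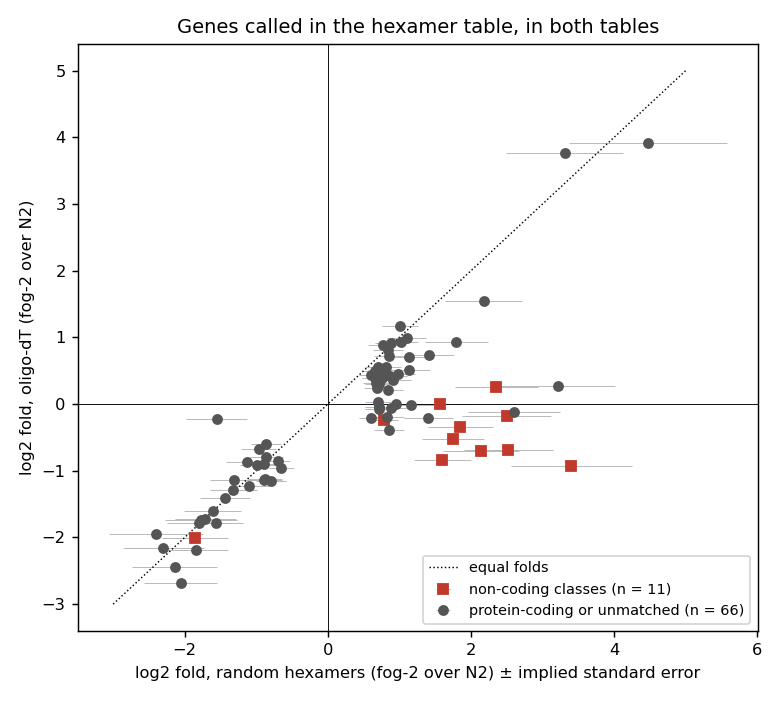
Log2 fold of fog-2 over N2 with oligo-dT against that with random hexamers for the 77 called genes tested in both tables, with the implied standard error of the hexamer fold as a bar and a dotted line at equal folds; both axes come from the same RNA samples. Red squares, genes of non-coding classes, lie at 0.78 to 3.40 with hexamers and at -0.93 to 0.26 with oligo-dT, except for tts-2, which is below 0 on both axes.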

How the data were processed

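Per the labels' protocols, libraries of whole worms were made from Trizol RNA with the TotalScript kit. Per the submitters' processing notes, TopHat, Cufflinks 2.1.1 and Cuffdiff were used; the genome build, annotation and depth are not stated there. For each priming the authors deposited a gene list with a pooled FPKM per genotype, a p-value with its q-value, and a score. The p-values and q-values printed are those of the authors' deposited tables unless said otherwise. FPKM are not counts, so no count test was run. Here, log2 folds were recomputed without a pseudocount, and standard errors were taken as the absolute log2 fold over the normal quantile of p. Folds relative to the median of tested genes were retested with that error and adjusted by Benjamini-Hochberg (scipy 1.17.1, Python 3.11.15). From either file 1 unnamed row was dropped. RNA classes came from Ensembl 115, and from RefSeq where Ensembl gave none (9615 of 9855 tested genes matched). Names given beside sequence names came from RefSeq. The 37 gene lists, the members and the alternatives were chosen with earlier results of these data known. Named genes were fog-2, among called genes at 5 FPKM or more the 12 highest and 12 lowest folds with a public name and the 5 highest and 5 lowest without one, genes at 0 in 1 genotype, and per list or class up to 4 called members, or the 2 with the smallest p and the 2 with the highest FPKM. Further genes were named after their values were seen. The p-values measure only the spread between these samples, as the authors' software estimated it. No sequences are shown.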

Additional observations from a re-analysis of the deposited data

How the results depend on the processing

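Scaling, threshold and fold size moved the counts of calls most. Against 53 higher and 28 lower genes, there were 31 and 60 with folds relative to the median of tested genes, 628 and 256 at an unadjusted p under 0.05, and 26 and 18 at 2-fold or more. With protein-coding genes alone, folds relative to their own median, a setting chosen after seeing the data, gave 21 and 56. The median of small nucleolar RNAs was 0.0426 without shared loci. The 0 genes that passed the test of different folds between primings became 29 with standard errors from the test score. That score does not always go with the authors' p-value. Of 155 genes named by rule with values above 0, 9 lost and 3 gained a call with folds relative to the median, and none changed direction among calls; 1 FPKM added moved msp-45 to -1.57 and mlt-11 to -0.64. Other minimums of FPKM, a q of 0.1 and loci of 1 gene model kept both counts within 1.5 times. No paired analysis was possible because each table holds 1 pooled value per genotype, and for the same reason leaving out a replicate could not be run. Low FPKM limit the sperm and male marker lists, in which most genes were not tested.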
